A study of Mus musculus with 26 samples.

Results

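The clustered histone genes are the rows of the mouse gene table whose symbols carry the older cluster names Hist1h, Hist2h, Hist3h and Hist4h. They were taken by that symbol pattern alone, and 68 of the 23762 genes in the table matched. Of the 68, 54 belong to the large Hist1 cluster, 10 to Hist2, 3 to Hist3 and 1 to Hist4. By protein class, 6 encode the linker histone H1, 18 the core histone H2A, 19 H2B, 12 H3 and 13 H4. These genes code for the bulk histones that package newly copied DNA. Most are transcribed during S phase, and their mRNAs end in a conserved stem-loop bound by the protein SLBP instead of a poly(A) tail. A minority of the genes also give, or only give, a spliced or extended polyadenylated transcript, often in cells that have stopped dividing. The libraries here were made from RNA captured on oligo-dT beads, so a histone mRNA without a tail should largely escape capture, and the values below are levels of what was captured, not of all histone mRNA.

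RNA was sequenced from 18 libraries of mouse B cell progenitors in 9 groups of 2. CXCL12 is the chemokine ligand of the receptor CXCR4, and interleukin 7 (IL-7) is the cytokine that drives proliferation of pre-B cells. The sorted groups were small pre-B cells labelled wild type and small pre-B cells labelled CXCR4-/-. The CXCR4-sufficient pre-B cultures had IL-7 (IL-7 cultures), no IL-7 (IL-7-free cultures), CXCL12 in place of IL-7 (CXCL12 cultures), both factors (both-factor cultures), or CXCL12 in place of IL-7 and ERK inhibitor II (inhibitor cultures). The remaining 2 groups were CXCR4-/- small pre-B cultures that had no IL-7: untreated, or given CXCL12. Strain, age, the design of the CXCR4 allele, culture times, doses and whether replicates came from separate animals are not given in the sources used here, so p-values rest on differences among these libraries alone, which may be technical. The sample descriptions call the CXCR4-sufficient cultures pre-B and the CXCR4-/- cultures small pre-B. The title of IL-7-free replicate 2 and the count column of CXCL12 replicate 2 instead carry the short form used for small pre-B, so the labels do not settle whether the starting cells differed.

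Total counts ran from 17257914 to 50235192 per library. Several libraries stood apart before any histone was considered. The 4 both-factor and inhibitor libraries held the glycolytic enzyme gene Gapdh at 1399 to 1730 CPM, against 1.05 to 12.3 CPM in the other 14. The untreated CXCR4-/- libraries differed from each other far more than other pairs, with a median chi-square ratio per gene of 120. By this measure the IL-7-free pair and the CXCL12 pair were close, at 1.34 and 1.23. Over the histone members with at least 20 counts in the pair, their mean chi-square was 3.70 and 6.65. That mean ran from 1.33 to 22.2 over the groups. A mean and a median ratio with different count limits are unlike measures, so the 2 are not set against each other. Sorted CXCR4-/- replicate 2 held Cxcr4 at 409 CPM, against 37.2 CPM in replicate 1 and 943 and 922 CPM in wild type, so it goes against its label in part. The 4 CXCR4-/- culture libraries held Cxcr4 at 114 to 137 CPM, below the 169 to 237 CPM of IL-7-free and CXCL12 cultures but no lower than the 113 and 112 CPM of IL-7 cultures. These values do not bear out the label. No source used here says which part of the gene the allele removes, and every genotype comparison below rests on the labels. Cd79a, which encodes a signalling chain of the pre-B cell receptor, was between 465 and 1317 CPM in all 18 libraries.

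Sequences upstream of the genes give a view of what the members share apart from their protein class. RefSeq start sites on the build GRCm38.p6 gave 62 windows of 250 bases before the start for 61 members (1 has 2 entries, and coordinates below belong to that build, not to mm9, which the counts used). Each was searched on both strands for 4 short motifs known from histone promoters: TATAAA (the TATA box), CCAAT (the CCAAT box), ATTTGCAT (the octamer bound by POU factors) and AAACACA (the H1 box). The linker histone windows are shown because H1 members differed in direction between groups, as described below, and capitals mark a motif match on either strand:

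Hist1h1c, chr13:23738557-23738806, plus strand: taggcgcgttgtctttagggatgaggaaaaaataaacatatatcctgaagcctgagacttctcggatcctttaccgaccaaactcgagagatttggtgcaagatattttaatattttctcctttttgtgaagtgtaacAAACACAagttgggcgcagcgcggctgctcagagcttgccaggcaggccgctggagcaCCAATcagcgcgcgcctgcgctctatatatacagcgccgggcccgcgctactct
Hist1h1a, chr13:23763418-23763667, plus strand: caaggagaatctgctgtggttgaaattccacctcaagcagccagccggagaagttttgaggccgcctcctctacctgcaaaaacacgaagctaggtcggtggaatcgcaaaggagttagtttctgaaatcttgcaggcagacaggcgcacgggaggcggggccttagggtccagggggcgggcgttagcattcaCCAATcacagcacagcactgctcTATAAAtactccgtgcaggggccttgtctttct
Hist1h1b, chr13:21780626-21780875, minus strand: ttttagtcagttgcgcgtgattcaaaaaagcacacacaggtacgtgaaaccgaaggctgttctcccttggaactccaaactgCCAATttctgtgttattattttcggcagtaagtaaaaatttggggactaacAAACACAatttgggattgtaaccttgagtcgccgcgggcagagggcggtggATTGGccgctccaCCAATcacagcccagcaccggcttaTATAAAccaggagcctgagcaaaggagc
Hist1h1d, chr13:23554782-23555031, plus strand: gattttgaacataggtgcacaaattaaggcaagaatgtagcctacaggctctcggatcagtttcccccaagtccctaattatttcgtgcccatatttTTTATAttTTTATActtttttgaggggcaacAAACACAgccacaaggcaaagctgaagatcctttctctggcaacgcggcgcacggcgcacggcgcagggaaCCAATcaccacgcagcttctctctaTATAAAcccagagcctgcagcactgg
Hist1h1e, chr13:23622559-23622808, minus strand: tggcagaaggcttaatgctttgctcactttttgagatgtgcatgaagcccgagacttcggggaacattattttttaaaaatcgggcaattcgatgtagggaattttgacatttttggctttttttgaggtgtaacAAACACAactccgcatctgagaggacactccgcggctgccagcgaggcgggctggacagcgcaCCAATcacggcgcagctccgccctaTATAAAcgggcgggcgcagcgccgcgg

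The AAACACA motif was found in 5 of the 6 H1 windows, all but Hist1h1a among the 5 printed, and in 6.25% of all 32851 promoter windows in the RefSeq table. CCAAT was found in 100% of the H1, H2A and H2B windows, in 80% of the H3 windows and in 25% of the H4 windows, against 33.8% of all windows. TATAAA was found in 46.8% of the member windows and 12.4% of all windows. The windows of Hist1h1c and Hist3h2a, the 2 members with the highest levels, held no TATAAA, whereas those of the other 4 H1 members printed did. Only these exact letters were counted, and both windows hold the similar letters tatata near the end next to the start site. A match is a description of letters only.

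The octamer was confined among these classes to H2A and H2B windows, 41.2% of each, and none of the H1, H3 or H4 windows held it. It was found in 1.60% of all windows. An H2A window, an H2B window and an H4 window without CCAAT are printed for contrast, each from a member described below:

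Hist3h2a, chr11:58954435-58954684, plus strand: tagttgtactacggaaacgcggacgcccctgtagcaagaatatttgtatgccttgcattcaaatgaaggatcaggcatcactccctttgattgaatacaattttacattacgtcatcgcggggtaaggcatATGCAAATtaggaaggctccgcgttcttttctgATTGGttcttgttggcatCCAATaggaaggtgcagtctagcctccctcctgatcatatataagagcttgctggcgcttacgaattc
Hist1h2bg, chr13:23571150-23571399, plus strand: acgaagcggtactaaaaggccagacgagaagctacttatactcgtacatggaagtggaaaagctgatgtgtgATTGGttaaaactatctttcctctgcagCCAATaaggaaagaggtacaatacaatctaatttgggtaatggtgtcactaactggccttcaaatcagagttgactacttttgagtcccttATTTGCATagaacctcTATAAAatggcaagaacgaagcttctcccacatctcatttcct
Hist1h4i, chr13:22041363-22041612, minus strand: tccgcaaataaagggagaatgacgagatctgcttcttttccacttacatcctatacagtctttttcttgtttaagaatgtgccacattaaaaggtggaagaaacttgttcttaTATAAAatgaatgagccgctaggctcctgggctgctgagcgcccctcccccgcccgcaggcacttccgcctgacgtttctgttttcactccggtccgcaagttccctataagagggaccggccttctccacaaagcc

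Despite oligo-dT capture, 63 of the 68 members gave at least 1 count, although their sum was only 0.00835% to 0.0354% of a library. CPM below are read counts scaled to library size with the trimmed mean of M-values (TMM). The sum of all members ran from 83.3 CPM in a CXCR4-/- culture with CXCL12 to 351 CPM in a sorted CXCR4-/- library. The 5 rows at 0 in every library were Hist1h2ao, Hist1h2ap, Hist1h2bq, Hist1h2br and Hist2h2aa1, and a count of 0 allows up to 0.0610 to 0.165 CPM per library (3 counts). Several of these have near-identical copies elsewhere in the cluster, and how reads shared between copies were counted is not given in the sources used here, so a 0 may be a read given to a copy or dropped. The same uncertainty holds for single core histone members that share most of their coding sequence. Median level over the 68 was 0.511 CPM, and 18 members reached a mean of 1 CPM, 5 reached 5 CPM and 4 reached 10 CPM.

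**Figure D1:**
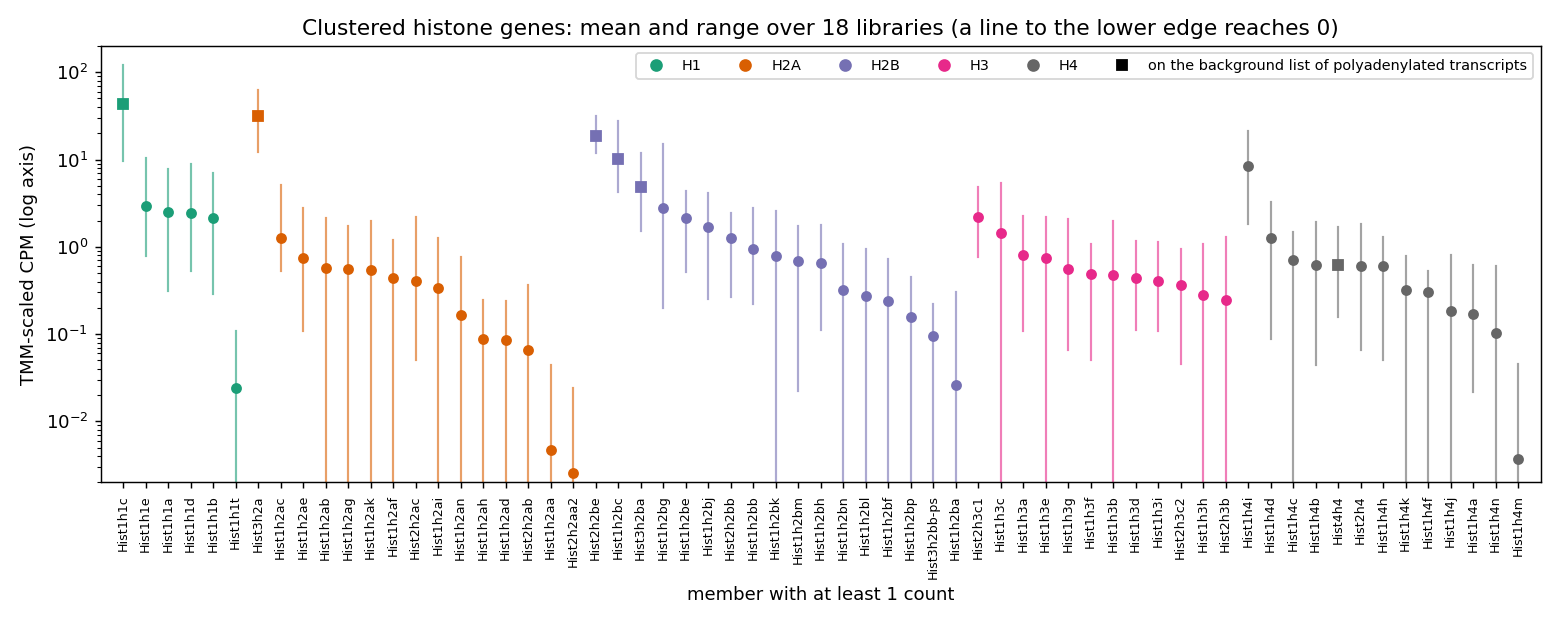
Mean TMM-scaled CPM (log axis) of each of the 63 members with a count, with a line from its lowest to its highest library of 18. Members are grouped and coloured by histone class, and squares mark the 6 members on the background list of polyadenylated transcripts, which include the highest members of H1, H2A and H2B.

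Most captured histone reads came from few genes. The 5 highest members held 71.0% of all member counts. A list of 6 members known as background to give polyadenylated transcripts (Hist1h1c, Hist1h2bc, Hist2h2be, Hist3h2a, Hist3h2ba and Hist4h4) held 68.7%. The 3 members known from testis, Hist1h1t, Hist1h2aa and Hist1h2ba, held 0.0265%, and the remaining 59 held 31.2%. All 9 counts of Hist1h2ba came from sorted wild type cells, 6 and 3 in its libraries.

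Between genes, levels were compared per kilobase of RefSeq gene length, leaving out genes of 3000 bp or more, whose span exceeds a histone transcript. This removed Hist1h2bc (mean 10.0 CPM, 8282 bp), Hist1h2be and Hist1h2bp, so their places in the order are unknown. Hist3h2a and Hist1h1c stood at 62.2 and 60.3 CPM per kb, followed by Hist1h4i at 21.1, Hist3h2ba at 10.4, Hist2h2be at 7.01 and Hist1h2bg at 5.92. The other 4 somatic H1 members stood between 2.72 CPM per kb (Hist1h1b) and 3.74 CPM per kb (Hist1h1e). Hist2h2be, an H2B gene, thus had a mean of 18.7 CPM, above that of Hist1h4i at 8.49 CPM, but stood below it per length. That order rests on a RefSeq length of 2667 bp for Hist2h2be, under the limit of 3000 bp, against 403 bp for Hist1h4i. Lengths of the captured transcripts were not measured.

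Among the linker histones, Hist1h1c (RefSeq symbol H1f2) was the one with high levels in every library. In wild type sorted cells its CPM were 60.8 and 63.3, in sorted cells labelled CXCR4-/- 73.3 and 121, 29.3 and 27.9 in IL-7 cultures and 42.3 and 43.6 in IL-7-free cultures. They were 90.7 and 92.5 in CXCL12 cultures, 13.6 and 17.3 in both-factor cultures and 27.8 and 26.0 in inhibitor cultures. Cultures labelled CXCR4-/- stood at 25.3 and 11.8 untreated and 10.7 and 9.73 given CXCL12. The lowest values were thus in both-factor cultures and those labelled CXCR4-/-, and the highest in sorted cells labelled CXCR4-/- and CXCL12 cultures.

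The other 4 somatic linker histones, Hist1h1a, Hist1h1b, Hist1h1d and Hist1h1e, were low and followed another order. In wild type sorted cells their summed CPM were 5.61 and 5.20, below the 28.8 and 33.3 of sorted cells labelled CXCR4-/- with no overlap. They were 6.06 and 5.26 in IL-7 cultures, 9.31 and 13.8 in IL-7-free cultures, 1.91 and 6.16 in CXCL12 cultures, 4.70 and 6.08 in both-factor cultures and 4.62 and 3.78 in inhibitor cultures. Cultures labelled CXCR4-/- stood at 17.7 and 8.81 untreated and 10.4 and 9.38 given CXCL12. The ratio of Hist1h1c to this sum was therefore 47.6 and 15.0 in CXCL12 cultures, 10.8 and 12.2 in wild type sorted cells, and 1.03 and 1.04 in cultures labelled CXCR4-/- given CXCL12, the lowest of the 9 groups.

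**Figure D2:**
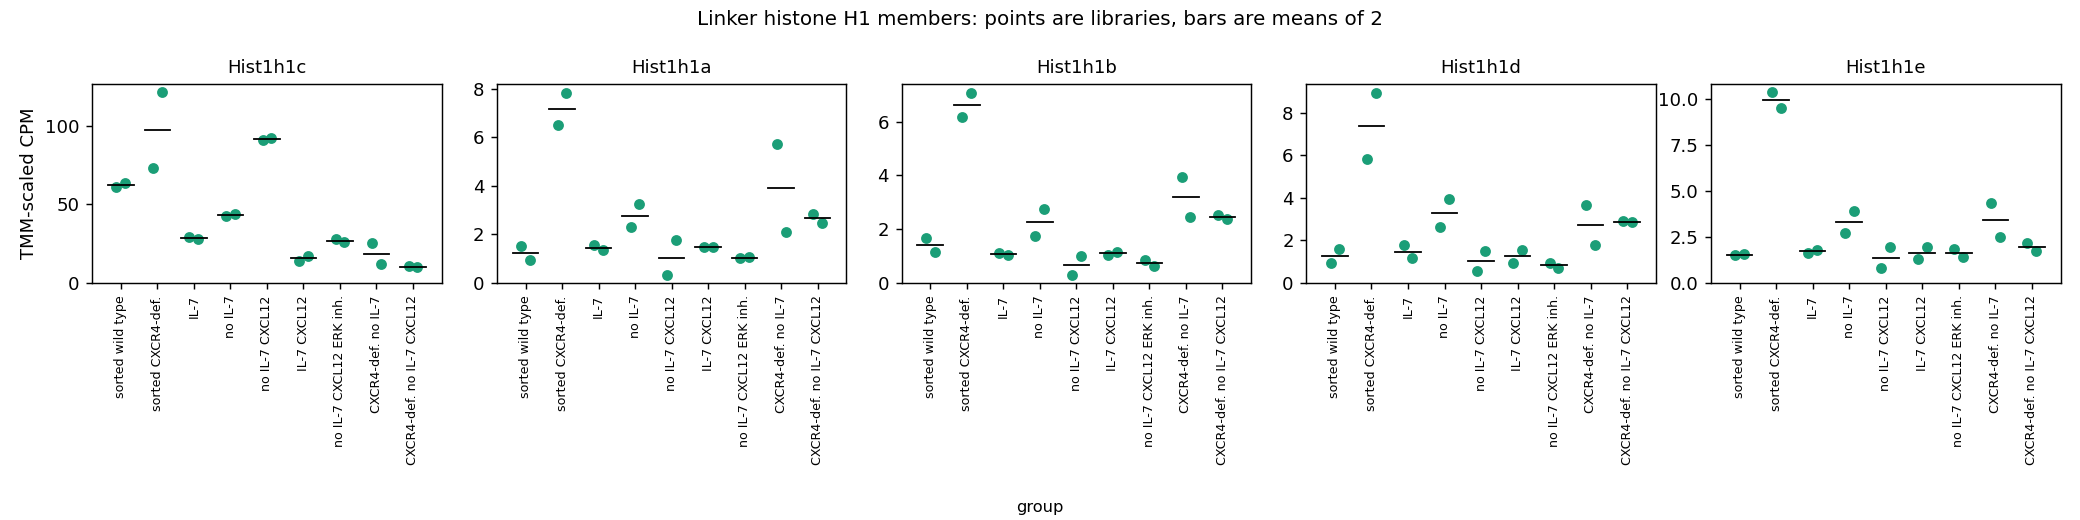
TMM-scaled CPM of 5 linker histone members in the 9 groups, with a point per library and a bar at the mean of 2; vertical scales differ and start at 0. Hist1h1c was high in CXCL12 cultures (90.7 and 92.5 CPM), where Hist1h1b was low (0.288 and 0.991 CPM).

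Core histone members did not follow 1 pattern. Hist3h2a, an H2A gene of the small Hist3 cluster, stood at 43.6 and 44.6 CPM in sorted wild type, 52.9 and 62.3 in sorted CXCR4-/-, 23.8 and 20.5 in IL-7 cultures, 34.4 and 34.7 in IL-7-free cultures and 57.9 and 58.1 in CXCL12 cultures. It stood at 12.6 and 13.1 in both-factor cultures, 17.6 and 16.7 in inhibitor cultures, 32.5 and 18.3 in untreated cultures labelled CXCR4-/- and 13.4 and 12.1 in those given CXCL12. It was high in sorted cells and CXCL12 cultures, as was Hist1h1c. Hist1h2bc was instead highest in an untreated CXCR4-/- library (27.3 CPM, its pair at 8.61) and lowest in sorted wild type (4.25 and 5.04 CPM). Hist2h2be varied least among the 5 highest members, between 11.9 and 31.5 CPM in all 18 libraries.

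Hist1h2bg, an H2B gene, separated sorted from cultured cells. It stood at 7.13 and 7.12 CPM in sorted wild type and 10.1 and 14.9 in sorted cells labelled CXCR4-/-, and in the 14 cultured libraries it did not exceed 1.28 CPM. Sorting and culture are different preparations, and no test between them was part of the design. Its divergent neighbour Hist1h2ae, an H2A gene whose promoter window overlaps that of Hist1h2bg, stood at 0.303 and 0.110 CPM in sorted wild type and reached its highest level, 2.81 CPM, in untreated CXCR4-/- replicate 1. Among the 9 such divergent H2A and H2B pairs, 1 is at 0 on both sides and 2 had means at least 5 times apart, 1 of them the testis pair at the floor. In the other, Hist1h2bk averaged 0.779 CPM and Hist1h2ah 0.0872 CPM, and Hist1h2bk was the higher in 17 of 18 libraries.

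**Figure D3:**
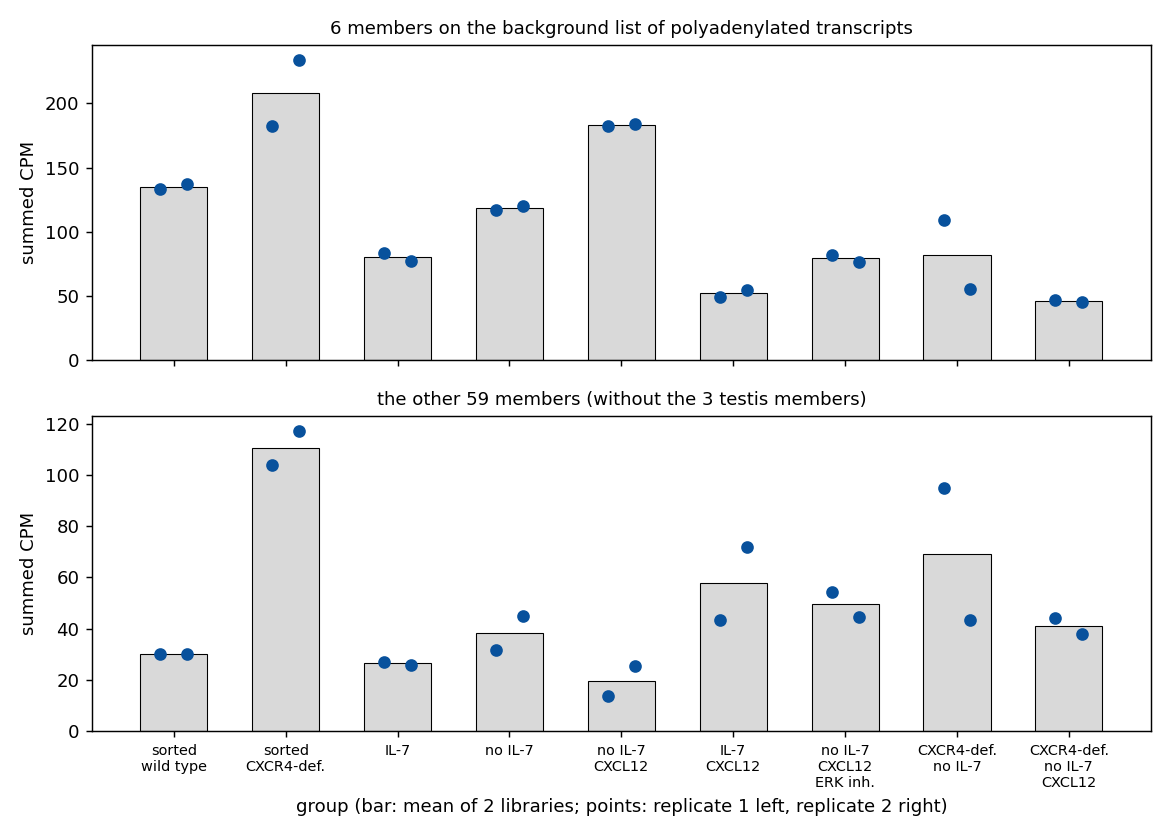
Summed TMM-scaled CPM per library (points) and group mean (bars, from 0) for 6 members on the background list of polyadenylated transcripts and for the other 59 members. In the upper panel CXCL12 cultures stand at 182 and 184, and in the lower panel they are the lowest group at 13.9 and 25.5.

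Across groups, the 6 listed members and the other 59 did not keep a constant proportion. Listed members supplied 92.9% and 87.8% of captured histone CPM in CXCL12 cultures and 81.4% and 81.8% in sorted wild type cells. They supplied 52.9% and 43.3% in both-factor cultures and 51.6% and 54.4% in cultures labelled CXCR4-/- given CXCL12. In bulk samples, fewer cells expressing a gene and less RNA per cell cannot be told apart, so these shares describe libraries, not cells.

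Each comparison was then tested with edgeR's quasi-likelihood test across 14862 genes, with Benjamini-Hochberg adjustment over all of them and a call at adjusted p under 0.05. Of the 68 members, 54 had enough counts to be tested: 5 H1, 10 H2A, 15 H2B, 12 H3 and 12 H4. The 14 not tested were too low and include the 5 rows at 0, all 3 testis members and the pseudogene Hist3h2bb-ps. Passing depended on counts in a group where the gene is high, so the counts below describe tested members only. Changes are log2 with their SE, with n of 2 libraries per group.

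Sorted cells labelled CXCR4-/- held more captured histone RNA than sorted wild type cells in every class. Of the 54, 36 were called higher and 0 lower, beside 16.6% of all genes higher and 17.6% lower. Downward, 0 members passed even an unadjusted p under 0.05 with edgeR, and DESeq2 called 0 lower at adjusted p under 0.05. The median change was 2.70 against -0.01 over all genes tested. By class, 4 of 5 H1, 6 of 10 H2A, 10 of 15 H2B, 9 of 12 H3 and 7 of 12 H4 members rose. The summed CPM of the 59 unlisted members went from 30.1 and 30.3 to 104 and 117.

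Linker histones rose together there except Hist1h1c. Hist1h1e was at 1.52 and 1.53 CPM in wild type and 10.3 and 9.46 CPM in cells labelled CXCR4-/-, a change of 2.70 ± 0.40 (adjusted p = 0.000244). The changes of Hist1h1d, Hist1h1a and Hist1h1b were 2.57 ± 0.51, 2.54 ± 0.59 and 2.22 ± 0.41, with adjusted p of 0.00195, 0.0055 and 0.0012. For Hist1h1c the change was 0.65 ± 0.28 and did not pass (adjusted p = 0.0944). Its libraries did not overlap, at 60.8 and 63.3 against 73.3 and 121 CPM, and the difference between Hist1h1c and the other H1 members was not tested.

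The 4 largest fitted rises among sorted cells were of core histone members with 0 counts in both wild type libraries, where a fitted fold is no bound. Against a floor of 3 counts over the wild type group, Hist1h2ak was at least 20.9-fold higher (1.36 and 1.99 CPM in cells labelled CXCR4-/-), Hist2h3b at least 15.9-fold, Hist1h4c at least 14.0-fold and Hist1h2af at least 10.0-fold. Hist1h4i, the highest H4 member, was at 1.82 and 3.12 CPM in wild type and 11.6 and 11.5 CPM in cells labelled CXCR4-/- (2.23 ± 0.39, adjusted p = 0.000921). Hist3h2ba, an H2B gene of the Hist3 cluster, changed by 2.81 ± 0.37 (adjusted p = 0.000105), from 1.52 and 1.70 to 11.7 and 10.8 CPM. Its cluster neighbour Hist3h2a changed by 0.38 ± 0.19 and did not pass (adjusted p = 0.151).

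Genes that act with these histones moved the same way in the sorted cells. Of 36 S phase genes tested, 35 rose and 0 fell, and of 20 mitosis genes 20 rose and 0 fell. Of 24 genes for synthesis, processing and decay of histone mRNA, 10 rose and 1 fell, led by cyclin E2 (Ccne2, 1.53 ± 0.09, adjusted p = 1.58e-07) and its kinase Cdk2 (0.85 ± 0.08, adjusted p = 7.3e-06). Of 18 histone chaperones, 10 rose and 1 fell, among them Asf1b, which hands H3 and H4 to replicating DNA (1.60 ± 0.08, adjusted p = 3.96e-08). Of 11 replacement variants, which are made outside the clusters, 6 rose and 1 fell, among them H2afx (4.01 ± 0.33, adjusted p = 2.08e-06) and H1f0 (1.82 ± 0.19, adjusted p = 1.66e-05).

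Other RNAs and cell markers differed between the sorted groups as well. The ribosomal RNA precursor Rn45s, which has no poly(A) tail, was at 3901 and 2444 CPM in wild type and 16324 and 19157 CPM in cells labelled CXCR4-/-. Of 7 tested RNAs on a list of those without a tail, 2 rose and 1 fell. The list includes Malat1 and Neat1, which were captured at means of 2677 and 241 CPM in sorted wild type. These counts are thus no plain measure of RNAs that escape capture. Summed myeloid markers were at 3699 and 3649 CPM in wild type and 4619 and 795 CPM in cells labelled CXCR4-/-, with 2 of 9 tested markers higher and 1 lower. The part of either in the histone changes was not tested. Leaving out sorted wild type replicate 1 gave 22 calls, and 19 of the 36 calls held without any 1 library. Without CXCR4-/- replicate 2, which holds Cxcr4 reads, 29 members were called higher.

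**Figure D4:**
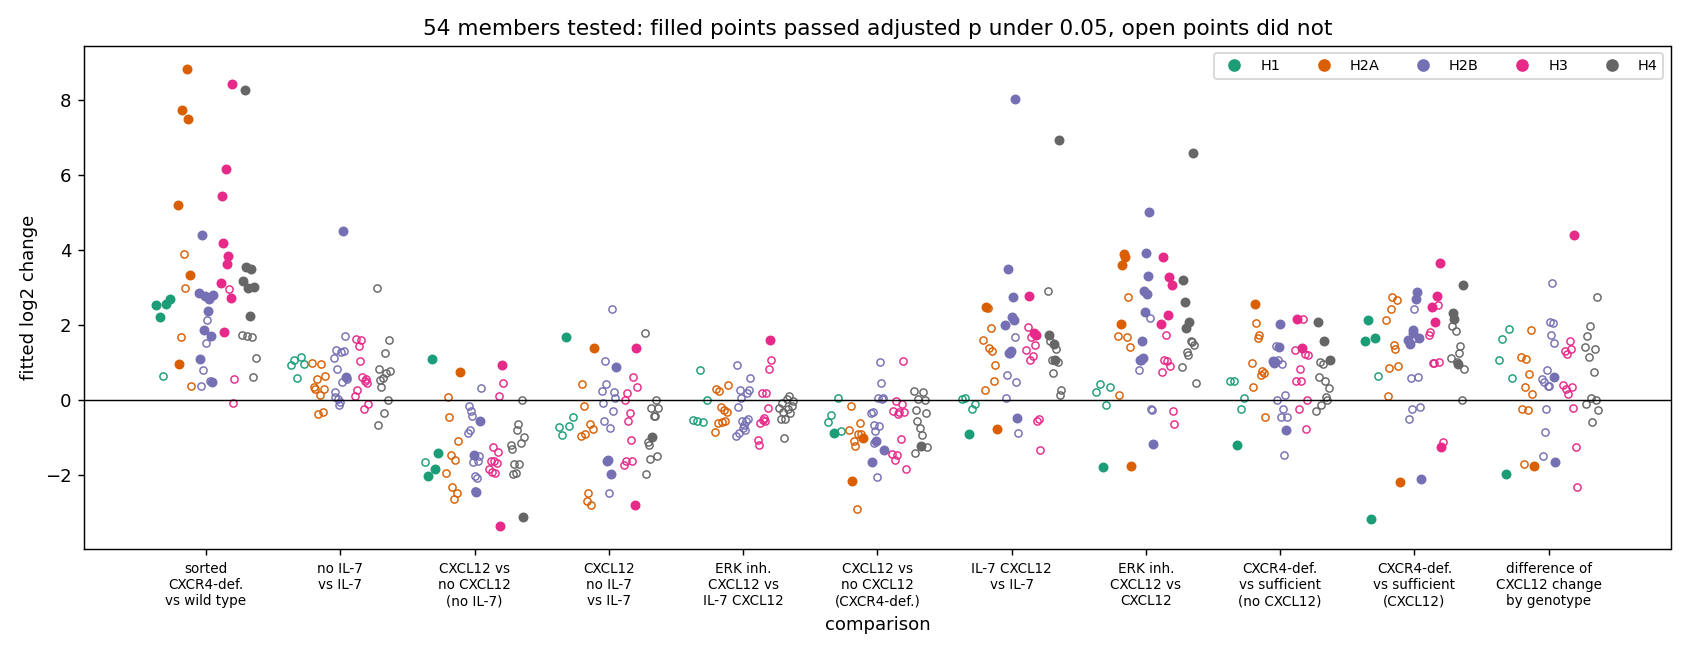
Fitted log2 change of each of the 54 tested members in the 11 comparisons, coloured by class; filled points passed adjusted p under 0.05. In the first column (sorted cells) 36 points are filled above 0 and 0 below, and in that of CXCL12 against IL-7-free cultures 3 are filled above and 8 below.

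Between IL-7-free and IL-7 cultures the number of members called depended on the fit. Of the 54, 2 were called higher and 0 lower, beside 5.6% of all genes higher and 6.23% lower, a share of members below that background. Hist2h2be was at 16.5 and 16.7 CPM in IL-7 and 25.6 and 24.9 CPM in IL-7-free cultures, a change of 0.60 ± 0.10 (adjusted p = 0.00255). The other, Hist1h2bn, rested on 0 counts against 7, at least 2.46-fold higher over the floor of 3 counts, and its call ended without any 1 of the 4 libraries. With these 2 groups fitted alone, 11 of 43 tested members were higher and 1 lower, beside 53.6% of all genes called in either direction. In the full model, 45 of the 54 had a fitted change above 0. Downward, 0 members passed an unadjusted p under 0.05 with edgeR, and DESeq2 called 4 higher and 0 lower. Of 36 S phase genes 0 rose and 7 fell.

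Between CXCL12 and IL-7-free cultures members changed in both directions. Of the 54, 3 were called higher and 8 lower, beside 17.3% of all genes higher and 13.2% lower, so the share lower was near the background and the share higher below it. The median change was -1.48 against 0.09 over all genes tested. Of the 6 listed members, 2 rose and 1 fell. Of the 48 others tested, 1 rose and 7 fell, and 44 had a fitted change below 0. Hist1h1c, at 42.3 and 43.6 CPM in IL-7-free and 90.7 and 92.5 CPM in CXCL12 cultures, rose by 1.09 ± 0.28 (adjusted p = 0.0116). Hist3h2a rose by 0.75 ± 0.19 (adjusted p = 0.0123), and Hist2h3c1, an H3 gene at 1.49 and 1.78 against 3.06 and 3.25 CPM, by 0.94 ± 0.30 (adjusted p = 0.0335).

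The members that fell with CXCL12 included 3 linker histones. Hist1h1b, at 1.75 and 2.73 CPM without and 0.288 and 0.991 CPM with CXCL12, changed by -2.02 ± 0.45 (adjusted p = 0.00545), Hist1h1d by -1.84 ± 0.51 (adjusted p = 0.0173) and Hist1h1e by -1.40 ± 0.40 (adjusted p = 0.0193). Thus 1 H1 gene rose while 3 fell in the same libraries. Of the core histones, Hist2h4 changed by -3.12 ± 0.73 (adjusted p = 0.00742) and Hist1h2bm by -2.44 ± 0.73 (adjusted p = 0.024). Hist2h3b rested on 17 counts against 1, a count ratio of 12.3 with a 95% interval from 1.93 to 516, which covers counting error only.

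These CXCL12 calls depended on single libraries. Hist2h2be, at 25.6 and 24.9 against 17.6 and 17.0 CPM, changed by -0.55 ± 0.10 (adjusted p = 0.00203) and was the 1 call of 11 that held without any 1 library. Leaving out CXCL12 replicate 1, the lower of its pair for the 59 unlisted members (13.9 against 25.5 CPM summed), gave 0 higher and 1 lower. Leaving out IL-7-free replicate 2 gave 0 and 2, and replicate 1 gave 0 and 7. The falls of Hist1h1b, Hist1h1d and Hist1h1e ended without either of the first 2 libraries (Hist1h1b without CXCL12 replicate 1: -1.17, adjusted p = 0.0885). The 2 groups fitted alone gave 4 higher and 27 lower of 40 tested members, beside 78.0% of all genes called in either direction. For Hist1h1c, the change was between 1.07 and 1.11 in all fits without 1 library, but the call ended in each (adjusted p between 0.055 and 0.079).

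Within those pairs, some RNAs that should escape oligo-dT capture also differed between replicates. Rmrp, the RNA of an RNA-processing enzyme, stood at 0.665 and 7.54 CPM with CXCL12 and 3.49 and 10.0 CPM without, and Rpph1, the RNA of RNase P, at 3.19 and 11.7 CPM and 7.15 and 14.8 CPM. In both of these pairs the replicate with more Rmrp and Rpph1 was also the one with more of the 59 unlisted members. The same held in the IL-7, both-factor and sorted CXCR4-/- pairs, and the reverse in the inhibitor and sorted wild type pairs. In each pair of cultures labelled CXCR4-/-, Rmrp and Rpph1 went opposite ways. The ribosomal RNA precursor Rn45s, also without a tail, was nearly level, at 3763 and 3722 CPM with CXCL12 and 7654 and 7886 CPM without. Whether capture differed between replicates was not tested. Proliferation genes fell in the same comparison, with 0 of 36 S phase genes higher and 36 lower, and 0 of 20 mitosis genes higher and 20 lower. The histone mRNA list had 0 of 24 higher and 12 lower, and the chaperones 0 of 18 higher and 13 lower. Stromal markers were higher for 4 of 8 tested and myeloid markers for 2 of 9, with summed levels of 2991 and 2942 against 1599 and 1588 CPM and of 638 and 639 against 257 and 261 CPM, and their part in the result was not tested.

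Against IL-7 cultures, CXCL12 cultures gave 4 members higher and 5 lower, beside 29.8% of all genes higher and 21.5% lower, so fewer members than genes at large were called. The CXCL12 libraries are those of the comparison above. Hist1h1c (1.68 ± 0.28, adjusted p = 0.000412) and Hist3h2a (1.39 ± 0.20, adjusted p = 0.000104) were again higher, and both calls held without any 1 library. Hist2h3c1 rose by 1.39 ± 0.31 (adjusted p = 0.00251). Of the falls, Hist1h2bj (-1.60 ± 0.43, adjusted p = 0.00824) held without any 1 library, and those of Hist1h2bm, Hist1h2bh and Hist2h3b did not. Myeloid markers were higher for 9 of 9 tested (638 and 639 against 137 and 193 CPM summed) and stromal markers for 7 of 8 (2991 and 2942 against 1086 and 1451 CPM), and their part in the result was not tested. S phase genes were lower for 36 of 36. Without CXCL12 replicate 1 or IL-7 replicate 1 the counts were 3 higher and 1 lower, and without IL-7 replicate 2 they were 3 and 2. Without the filter on low counts 4 were higher and 1 lower.

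In cultures labelled CXCR4-/- the same CXCL12 comparison gave 0 members higher and 7 lower, beside 12.8% of all genes higher and 21% lower. Upward, 0 members passed an unadjusted p under 0.05 with edgeR, and DESeq2 called 0 higher and 8 lower. The largest falls among these were of Hist1h2ae (-2.15 ± 0.76, adjusted p = 0.0471), Hist1h2bc (-1.65 ± 0.39, adjusted p = 0.0218), Hist3h2ba (-1.33 ± 0.37, adjusted p = 0.0225) and Hist1h4i (-1.23 ± 0.36, adjusted p = 0.0258). Hist3h2a and Hist1h1c changed by -0.998 ± 0.20 and -0.87 ± 0.30 (adjusted p = 0.0218 and 0.0425).

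All of these falls were measured against a pair whose libraries disagree. Hist1h2bc, for example, was at 27.3 and 8.61 CPM untreated and 5.56 and 5.92 CPM given CXCL12, and Hist1h1c was at 25.3 and 11.8 against 10.7 and 9.73 CPM. Leaving out untreated replicate 1, the change of Hist1h1c became -0.20. The number of members called rose without untreated replicate 2 and fell without any other library, and the share of all genes called moved the same ways. The 2 groups fitted alone gave 0 calls, beside 0% of all genes. In the full model, 9 of 11 replacement variants fell in the same comparison with 0 higher.

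The difference between the CXCL12 changes of the 2 genotypes was tested as a term of its own. Of the 54, 2 were called with a more positive change in cultures labelled CXCR4-/- and 3 with a more negative one, beside 12.1% and 13.1% of all genes. Hist1h1c (-1.96 ± 0.41, adjusted p = 0.00512) and Hist3h2a (-1.74 ± 0.28, adjusted p = 0.00099) were more negative, and both held without any 1 library. Without untreated CXCR4-/- replicate 1 these differences were -1.19 (adjusted p = 0.021) and -1.16 (adjusted p = 1.8e-05). Hist2h2be differed by 0.61 ± 0.15 (adjusted p = 0.0121), but not without IL-7-free replicate 1 (0.59, adjusted p = 0.050). The 5 calls became 2 without IL-7-free replicate 1, 3 without IL-7-free replicate 2, CXCL12 replicate 1 or CXCR4-/- CXCL12 replicate 2, and 9 without untreated CXCR4-/- replicate 2 or CXCL12 replicate 2. With close pairs summed, Hist3h2a alone was called.

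Between genotypes, cultures lacking IL-7 and CXCL12 gave 11 members higher and 2 lower in cells labelled CXCR4-/-, beside 31% of all genes higher and 34.6% lower. Hist1h4i, at 4.74 and 5.20 CPM in sufficient and 21.0 and 8.45 CPM in cultures labelled CXCR4-/-, rose by 1.57 ± 0.36 (adjusted p = 0.00216). Hist1h1c fell by 1.21 ± 0.29 on the log2 scale (adjusted p = 0.00286), and Hist2h2be, at 25.6 and 24.9 against 15.9 and 13.3 CPM, changed by -0.79 ± 0.11 (adjusted p = 5.45e-05). These 3 calls held without any 1 library. Hist1h2ae, Hist1h3c, Hist1h4b and Hist1h2bk had the largest rises, from 2.04 to 2.56, and their calls ended without CXCR4-/- replicate 1. Leaving out that library gave fewer members higher and more lower, and leaving out replicate 2 gave more higher. Without either IL-7-free replicate fewer were higher. In each of these fits the share of members called was below that of all genes. With the 2 groups fitted alone 0 were called, beside 19.2% of all genes.

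With CXCL12 in both, members again differed between genotypes in both directions. Of the 54, 18 were higher and 4 lower in cultures labelled CXCR4-/-, beside 27.3% of all genes higher and 35.7% lower, with a median change of 1.54 against -0.14. The CXCR4-sufficient libraries are those of the CXCL12 comparison above, and differed from each other in the unlisted members (13.9 and 25.5 CPM summed). Of the 6 listed members, 3 were lower and 3 were not called. Those lower were Hist1h1c by -3.16 ± 0.31 (adjusted p = 2.31e-06), from 90.7 and 92.5 to 10.7 and 9.73 CPM, Hist3h2a by -2.18 ± 0.21 (adjusted p = 1.69e-06) and Hist3h2ba by -2.10 ± 0.36 (adjusted p = 0.000282). Of the 48 unlisted members tested, 18 rose and 1, Hist2h3c1, fell (-1.25 ± 0.33, adjusted p = 0.00513).

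Linker histones split again here. Hist1h1b (2.15 ± 0.47, adjusted p = 0.00151), Hist1h1d (1.66 ± 0.53, adjusted p = 0.0159) and Hist1h1a (1.59 ± 0.63, adjusted p = 0.0431) rose, and Hist1h1e changed by 0.64 ± 0.42 without passing (adjusted p = 0.208). Hist2h4 rose by 3.08 ± 0.77 (adjusted p = 0.00399) and Hist1h3g by 2.76 ± 0.72 (adjusted p = 0.00511). The largest fitted rises, of Hist2h3b and Hist1h2bn, rested on 10 counts against 1 and 6 against 1. The calls of Hist1h1c, Hist3h2a and Hist3h2ba (lower) and of Hist1h1b and Hist1h2bj (higher) held without any 1 library. Leaving out CXCL12 replicate 1 of the sufficient cells gave 3 higher and 4 lower, and leaving out CXCR4-/- CXCL12 replicate 1 or 2 gave 7 and 4 or 11 and 3.

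S phase genes were higher in CXCL12 cultures labelled CXCR4-/- for 36 of 36 and the histone mRNA list for 17 of 24, with 0 lower in either. Myeloid markers were lower for 9 of 9 tested in both genotype comparisons, summing to 11.5 to 17.3 CPM in the 4 cultures labelled CXCR4-/-, 257 and 261 CPM in IL-7-free cultures and 638 and 639 CPM in CXCL12 cultures. Stromal markers were lower for 6 of 8 and 7 of 8, summing to 531 to 953 against 1588 to 2991 CPM. The median log2 changes of the tested stromal markers were -9.37 and -9.73, larger falls than these sums show. The part of these cells in the histone differences was not tested.

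The 4 libraries that stand apart by Gapdh had more of the unlisted members than the cultures they were set against. In both-factor against IL-7 cultures, 17 of 54 were higher and 3 lower, beside 15.3% of all genes higher and 16.5% lower. In inhibitor against CXCL12 cultures, 24 were higher and 3 lower, beside 26.9% and 30%. All 3 lower members in the first were listed, Hist1h1c (-0.89 ± 0.28, adjusted p = 0.0304), Hist3h2a (-0.78 ± 0.20, adjusted p = 0.00918) and Hist2h2be (-0.47 ± 0.10, adjusted p = 0.00436). So were all 3 in the second, Hist1h1c (-1.77 ± 0.29, adjusted p = 0.000205), Hist3h2a (-1.76 ± 0.20, adjusted p = 1.09e-05) and Hist3h2ba (-1.17 ± 0.33, adjusted p = 0.00867).

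Among the rises, Hist1h2bn was at 0.963 and 0.936 CPM in both-factor and 0.637 and 0.651 CPM in inhibitor cultures. It had 0 counts in IL-7 cultures, and was at least 29.1-fold higher in both-factor cultures over the floor of 3 counts. Hist1h4n, an H4 gene, had 0 counts in the 10 culture libraries outside this set and was at least 13.9-fold higher with both factors than with IL-7, and at least 7.35-fold higher with the ERK inhibitor than with CXCL12 alone. Hist1h2bf, an H2B gene, rose by 3.49 ± 0.60 with both factors (adjusted p = 0.000765), and Hist1h2bb by 2.00 ± 0.40 (adjusted p = 0.00212). Against CXCL12 alone, Hist1h4i rose by 2.09 ± 0.37 with the ERK inhibitor (adjusted p = 0.000435), from 3.24 and 3.14 to 14.4 and 12.8 CPM, and Hist1h2bj by 2.36 ± 0.42 (adjusted p = 0.000431). Hist1h2bk and Hist1h2ag had fitted rises of 3.93 ± 1.04 and 3.90 ± 1.10 (adjusted p = 0.00637 and 0.00904), which did not hold without CXCL12 replicate 1.

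For the other 4 somatic H1 members the changes lay between -0.22 and 0.43 in both comparisons and did not pass. What sets these 4 libraries apart and the added agent cannot be told apart in these comparisons, since every library with both factors or the inhibitor belongs to the set. The replacement variant H2afz was at 612 and 671 CPM in both-factor and 27.0 and 24.6 CPM in IL-7 cultures. Myeloid markers were higher for 7 of 9 tested in both comparisons, summing to 1592 and 1464 against 137 and 193 CPM and to 3122 and 3192 against 638 and 639 CPM. Stromal markers were lower for 6 of 8 in both, in the same direction as Hist1h1c and Hist3h2a. They summed to 706 and 707 against 1086 and 1451 CPM and to 1047 and 1068 against 2991 and 2942 CPM. The median log2 changes of the tested stromal markers were -5.25 and -5.38, larger falls than these sums show. T cell markers were higher for 4 of 5 and 5 of 5, and megakaryocyte markers for 3 of 4 in both. Of 36 S phase genes, 12 rose and 1 fell in the first and 36 rose in the second. Their part in the histone changes was not tested. Leaving out IL-7 replicate 1, IL-7 replicate 2 or replicate 2 with both factors left 6 calls in the first comparison. In the second, leaving out CXCL12 replicate 1 left 9 and leaving out ERK inhibitor replicate 1 left 13.

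Within the set, inhibitor cultures differed from both-factor cultures in the presence of IL-7 as well as of the inhibitor. Of the 54, 1 was higher and 0 lower, beside 6.5% of all genes higher and 4.54% lower. It was Hist2h3c1, at 0.757 and 0.936 CPM with both factors and 2.57 and 2.60 CPM with the inhibitor (1.61 ± 0.31, adjusted p = 0.00559), and the call ended without replicate 1 with both factors (adjusted p = 0.0801). Downward, 1 member passed an unadjusted p under 0.05 with edgeR, and DESeq2 called 3 higher and 0 lower.

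**Figure D5:**
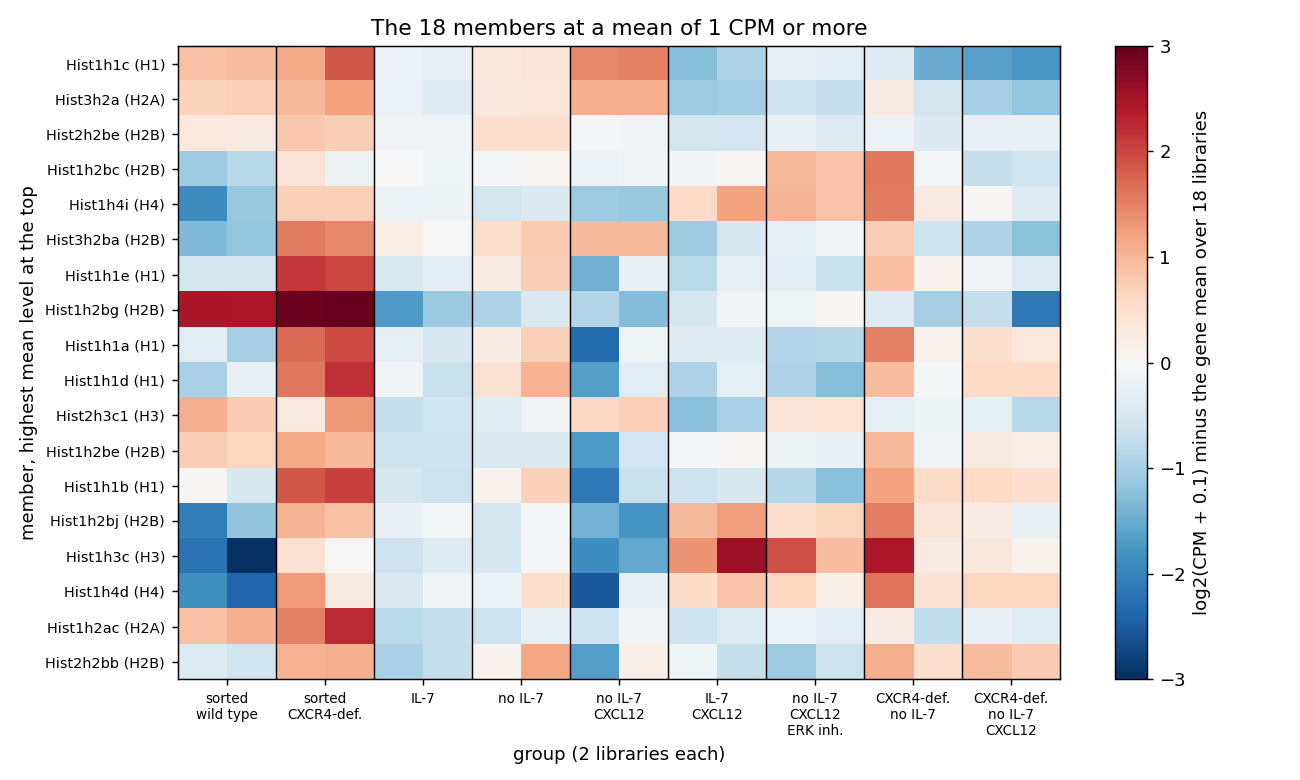
Map of log2(CPM + 0.1) minus each gene's mean over 18 libraries for the 18 members at a mean of 1 CPM or more, with 2 columns per group and the highest member at the top. Hist1h2bg stands out in the 4 sorted libraries, and Hist1h1c and Hist3h2a run against Hist1h1b and Hist1h2bj in CXCL12 cultures.

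Outside the clusters, the genes whose levels followed the summed members most closely over the 18 libraries were Adssl1, Ap5z1, Clasrp, Hgs, Zfp579 and Ppox, with Pearson's r of log2(CPM + 1) from 0.890 to 0.937 among 9505 candidates. The sum is carried by Hist1h1c and Hist3h2a, and the libraries share groups and depth, so this is a description only.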

How the data were processed

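Libraries were made by oligo-dT capture with a stranded mRNA kit, per the labels' protocols. The values used were read counts per gene as deposited by the authors, on the build mm9, and the submitters' processing notes name STAR and featureCounts. Their versions, strand setting and handling of reads shared between near-identical copies are not given in the sources used here. Of the deposited table, 0 columns had no sample. The 8 ATAC-seq lists were not analysed here.

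Counts of all 18 libraries were fitted in 1 model with edgeR 4.0.16 (R 4.3.3): TMM scaling, filterByExpr, a robust quasi-likelihood test and Benjamini-Hochberg adjustment over 14862 genes, with calls at adjusted p under 0.05. The script was tested on simulated data. DESeq2 1.42.0, other scalings and filters, a replicate block and leaving out each library were tried. Genes set to be named were the 3 highest per class, the 4 largest called rises and falls per comparison and the listed polyadenylated and testis members. Not all of these are described above. Others named were chosen after their values were seen. Members and lists were chosen with earlier results of these data known. Levels per kb used RefSeq gene lengths. A floor of 3 counts and 95% intervals cover counting error only. Python 3.11.15 was used for tables and plots.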

Additional observations from a re-analysis of the deposited data

Results flagged for a closer look

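The CXCL12 change differed between cultures labelled CXCR4-/- and CXCR4-sufficient cultures for 5 of 54 members, beside 25.2% of all genes, a smaller share than among genes at large, by the test of that difference in edgeR's quasi-likelihood model with Benjamini-Hochberg adjustment. The difference in log2 change was -1.96 for Hist1h1c, -1.74 for Hist3h2a, -1.65 for Hist3h2ba (adjusted p = 0.0282), 0.61 for Hist2h2be and 4.41 for Hist2h3b (adjusted p = 0.0263). The last rests on few counts, 17 and 1 in the sufficient cultures. All 5 use the untreated CXCR4-/- pair, whose replicates stand apart.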

How the results depend on the processing

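Of 153 calls of a member in a comparison, 47 held without any 1 library and 41 in every alternative run. No label says that a replicate number pairs libraries, and with 2 pairs the data do not settle it: deviations of same-numbered libraries correlated between -0.07 and 0.22, with 0.11 for CXCL12 against IL-7-free and 0.22 for CXCL12 in cultures labelled CXCR4-/-. With the replicate block, 1 member was called between IL-7-free and IL-7 cultures (2 without it) and 4 between cultures labelled CXCR4-/- (7 without it). Fitting only the groups compared gave 12 calls for IL-7-free against IL-7 cultures, beside 53.6% of all genes called in that fit. It gave 31 for CXCL12 against IL-7-free (11 in the full model), beside 78.0% of all genes. For inhibitor against both-factor cultures it gave 12 (1), beside 44.8%, and for CXCL12 in cultures labelled CXCR4-/- 0 (7), beside 0%. For genotype in cultures lacking both factors it gave 0 (13), beside 19.2%, and for the difference of CXCL12 changes 1 (5), beside 9.57%. Without the both-factor and inhibitor groups the counts were 1 for IL-7-free against IL-7, 0 for CXCL12 in cultures labelled CXCR4-/- and 8 for genotype in cultures lacking both. Summing the close pairs, an alternative chosen after seeing the data, gave 1, 2, 7 and 1 for IL-7-free against IL-7, CXCL12 against IL-7-free, that genotype comparison and the difference of changes. DESeq2 gave 4 for IL-7-free against IL-7, 3 for inhibitor against both-factor and 9 for the difference. With no filter, CXCL12 against IL-7 cultures gave 5 (9 with it).

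Leaving out 1 library gave 22 to 33 calls between sorted cells, 1 in each case for IL-7-free against IL-7, 1 to 15 for CXCL12 against IL-7-free, 4 to 13 for CXCL12 against IL-7, 0 to 1 for inhibitor against both-factor and 0 to 18 for CXCL12 in cultures labelled CXCR4-/-. It gave 6 to 17 for both-factor against IL-7, 9 to 28 for inhibitor against CXCL12, 3 to 24 and 7 to 30 for genotype in cultures lacking both and given CXCL12, and 2 to 9 for the difference. A lone remaining library was assumed to vary like the other groups. The 1 reversal was Hist1h2bc between genotypes in cultures lacking both, from 0.99 to -0.15 without untreated CXCR4-/- replicate 1 and 1.58 without replicate 2. The causes were not tested, apart from fewer samples or genes entering a fit by construction. Depth limits most members: their median level of 0.511 CPM is few counts per library.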
